A study of Mus musculus with 8 samples.

Results

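Paneth cells sit at the base of the small intestinal crypt, wedged between the Lgr5-expressing stem cells, and feed these neighbours with growth signals. Described here are 8 genes of this cell type: the niche ligands Wnt3, Egf, Tgfa, Dll1 and Dll4, and the surface markers Bst1, Kit and Cd24a. They were chosen by name and not by a cut on their values, though with earlier results of these data known. All 8 were found among the 55414 Ensembl gene identifiers of the deposited table. C57BL/6J mice had free access to a standard diet (control) or a zinc depleted diet (zinc deficient) for 7 weeks, after which Paneth cells were sorted from their small intestine by flow cytometry and sequenced as bulk RNA. Each diet has 4 biological replicates, each a library from the cells of 1 mouse. The cells come from the whole organ, with no split by region. No other allele or agent is named, and neither is the age of the animals. The biological question is whether zinc depletion alters the signals by which Paneth cells hold the stem cell niche. In a bulk sample, fewer cells of a type and less RNA per cell cannot be told apart.

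The ligands fall into 3 systems. Wnt proteins are lipidated in the producing cell, act over a short range and bind Frizzled and LRP receptors on the stem cell, which keeps it dividing. EGF and TGF-alpha both bind the EGF receptor, whereas the Delta-like proteins DLL1 and DLL4 stay in the membrane and activate Notch on the touching cell, which holds that cell out of the secretory lineage. The surface markers differ in kind: BST1 is a membrane-anchored enzyme that makes cyclic ADP-ribose, KIT is the receptor tyrosine kinase for stem cell factor, and CD24 is a small glycoprotein that is widely used to sort Paneth cells. The markers of the sort gate are shown in a supplementary picture of the study that was not used here, so whether the gate used any of these surface proteins was not checked.

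Total counts were 8557690 to 12648005 per mouse. The libraries were scaled in 2 ways: to CPM, which sets the counts of a gene against the total of the mouse, and to CPM after the trimmed mean of M-values (TMM), a factor that places the bulk of the genes at the same level in every mouse. Control replicate 1 stood apart, with a TMM factor of 1.57 against 0.719 to 1.16 in the other mice, and with the lowest share of counts on the 28 protein-coding alpha-defensin genes (35.7% against 41.5% to 50.9%). All 9 Paneth cell markers were present in every mouse, the lowest at 335 CPM (Habp2 in zinc deficient replicate 2). Markers of stem cells were present as well, at a summed 1564 to 2631 CPM in the control mice and 631 to 1313 CPM in the zinc deficient mice. The 8 goblet cell markers summed to 7277 to 10450 CPM in the control mice and 7171 to 12120 CPM in the zinc deficient mice. The summed level of 8 tuft cell markers was 14.2 to 88.6 CPM in 7 mice and 424 CPM in zinc deficient replicate 3.

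Short stretches of promoter are shown because zinc acts on transcription through the factor MTF1, and because Paneth cell genes are known targets of the Wnt effector TCF/LEF. Windows of 300 bases (250 before and 50 after the start of the canonical transcript, GRCm39) were searched on both strands for the metal response element core, TGCACNC or TGCGCNC, and for the TCF/LEF letters CTTTGAT. The first occurred in 5 of the 8 genes and in 34.1% of the promoters of the genes tested, the second in 2 of the 8 and in 2.73%. Capitals mark the match, given 5′ to 3′ on the strand of the gene, where the metal response core begins 54 bases before the start in Dll4 and the TCF/LEF letters begin 189 bases before it in Egf.
Wnt3, metal response core, chr11:103664753-103664777, plus strand: aggcctccgTGCGCCCggggcgcag
Dll4, metal response core, chr2:119156107-119156131, plus strand: gcggggaccTGCGCCCtactggctg
Cd24a, metal response core, chr10:43455166-43455190, plus strand: caccttgccTGCGCCCgcgcgagct
Egf, TCF/LEF, chr3:129549267-129549291, minus strand: gttactcacCTTTGATttaaaaagt
Bst1, TCF/LEF on the opposite strand, chr5:43976245-43976269, plus strand: gctagaggaATCAAAGtcttcttga
The core was also found in Bst1 and Kit, and a further time in Wnt3 on the opposite strand. The matches printed for Cd24a and Bst1 begin 12 and 21 bases after the start. A match describes letters and is no evidence of binding.

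Wnt3 (ENSMUSG00000000125) occupies positions 103664976 to 103708853 of chromosome 11 in GRCm39 (plus strand, 5 exons). It is the Wnt ligand by which Paneth cells sustain stem cells in culture. Its level was 156, 147, 132 and 117 CPM in control replicates 1 to 4 and 121, 94.0, 141 and 112 CPM in zinc deficient replicates 1 to 4, so the diets overlapped. After TMM scaling, Wnt3 lay at 99.3 to 142 CPM in the control mice and at 129 to 133 CPM in the zinc deficient mice. Its SD over the 8 mice on the log2 scale was 0.15, lower than that of all but 8.19% of the genes tested.

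Among the 19 Wnt genes of the mouse, Wnt3 stood alone. Levels of different genes were compared as TPM, which divides counts by the summed exon length of the gene. Wnt3 had 33.69 ± 7.996 TPM (SD, n = 8) and took 97.5% ± 0.664 of the summed TPM of the family, from 96.5% to 98.5% per mouse. Wnt5a followed with 0.240 ± 0.118 TPM and Wnt10a with 0.234 ± 0.113 TPM. No count fell on 8 Wnt genes in any mouse, Wnt3a and Wnt2b among them, and 5 of the 19 had a count in every mouse. The share of Wnt3 was 97.3% ± 0.190 in the control mice and 97.6% ± 0.968 in the zinc deficient mice (n = 4 each), a difference of 0.285 percentage points (p = 0.571 by an exact permutation test, two-sided, whose 70 assignments allow no p below 0.0286). Adjusted over the 5 shares tested in this way, p was 0.886.

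**Figure D1:**
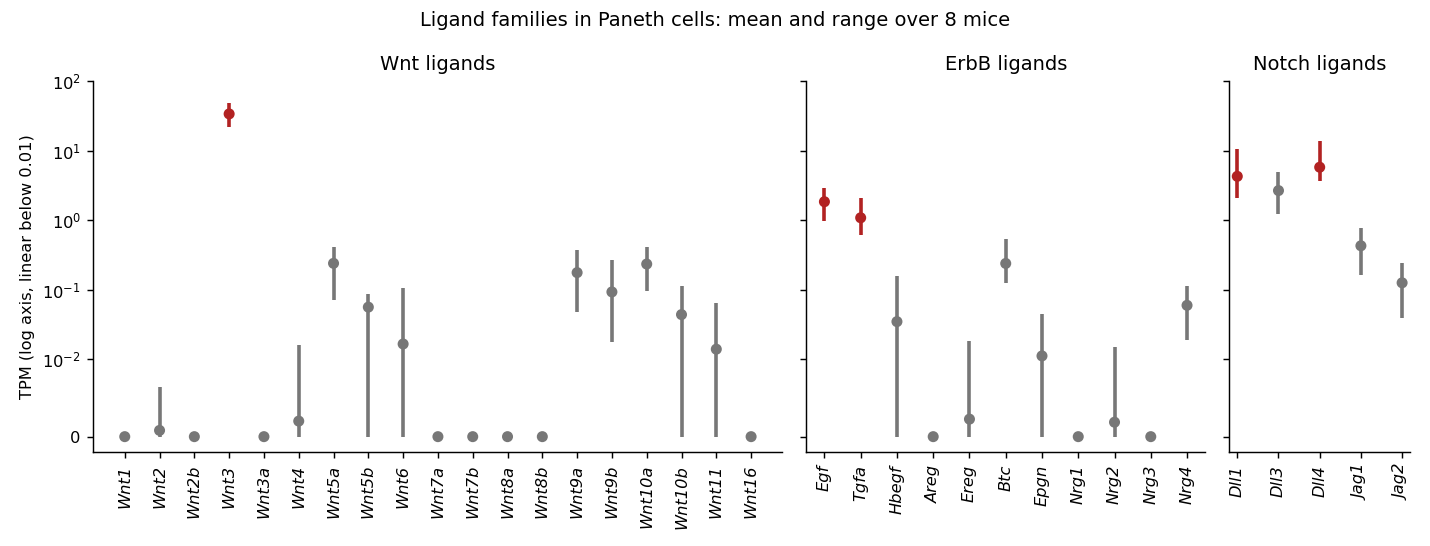
Level of each Wnt, ErbB and Notch ligand gene in TPM (y axis, logarithmic above 0.01 and linear below), as the mean (point) and the range (line) over 8 mice, with Wnt3, Egf, Tgfa, Dll1 and Dll4 in red. Wnt3, at 33.7 TPM, lies far above the other Wnt genes, and Egf and Tgfa lead the ErbB ligands, whereas Dll3, at 2.66 TPM, comes close to Dll1 and Dll4.

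Egf (ENSMUSG00000028017; chromosome 3, 129470410 to 129549093, minus strand, 24 exons) encodes the membrane precursor of epidermal growth factor. Its level was 36.9, 33.6, 28.2 and 33.0 CPM in control replicates 1 to 4 and 26.3, 16.3, 26.1 and 15.6 CPM in zinc deficient replicates 1 to 4. Every zinc deficient mouse thus lay below every control mouse in CPM. Library totals alone, as in CPM, moved the log2 fold change of the median gene by -0.36 against TMM scaling. How many of all genes separated in this way in CPM was not counted. For Egf the separation was lost after TMM scaling, with 23.5 to 34.8 CPM in the control mice and 18.4 to 28.1 CPM in the zinc deficient mice.

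Tgfa (ENSMUSG00000029999; chromosome 6, 86172041 to 86252728, plus strand, 6 exons) encodes transforming growth factor alpha. It rested on 56 to 177 counts per mouse, the fewest of the members with a count in every mouse. Levels were 15.0, 8.94, 6.54 and 6.61 CPM in the control mice and 10.5, 5.81, 10.2 and 6.80 CPM in the zinc deficient mice, and the diets overlapped.

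Of the 11 ErbB ligand genes, Egf took 56.6% ± 5.68 and Tgfa 33.3% ± 6.45 of the summed TPM (SD, n = 8). The next was Btc, which encodes betacellulin, with 0.239 ± 0.158 TPM, against 1.84 ± 0.646 TPM for Egf and 1.08 ± 0.480 TPM for Tgfa. Areg, Nrg1 and Nrg3 had no count in any mouse, and Ereg had 1 count in all. The share of Tgfa was 37.2%, 26.8%, 27.4% and 23.1% in control replicates 1 to 4 and 38.3%, 35.5%, 38.6% and 39.4% in zinc deficient replicates 1 to 4. Only control replicate 1 reached the range of the zinc deficient mice. The difference of 9.34 percentage points did not pass (exact two-sided permutation test, p = 0.0571, adjusted p = 0.286), and neither did that of Egf, from 59.4% ± 6.96 to 53.8% ± 2.39 (exact p = 0.200, adjusted p = 0.500).

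Dll1 (ENSMUSG00000014773; chromosome 17, 15587276 to 15597134, minus strand) and Dll4 (ENSMUSG00000027314; chromosome 2, 119156170 to 119166443, plus strand) have 11 exons each. Dll1 had 54.3, 36.7, 19.9 and 13.6 CPM in control replicates 1 to 4 and 16.3, 16.4, 28 and 12.9 CPM in zinc deficient replicates 1 to 4. Dll4 had 56.2, 26.7, 32.4 and 18.4 CPM in the control mice and 19.2, 20.7, 23.9 and 17.8 CPM in the zinc deficient mice. Both genes varied most among the control mice and were highest in control replicate 1. On the log2 scale after TMM, their SD over the 8 mice was 0.45 and 0.34, at or above that of 87.0% and 67.0% of the genes tested, where the median gene had 0.28. Exons of Dll1 overlap those of Fam120b on the opposite strand, which had 1326 counts in all, and exons of Dll4 overlap those of Gm14207, which had 546. The libraries were stranded, but whether the counting used strand is not stated, so reads in these overlaps cannot be told apart.

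Of the 5 Notch ligand genes, Dll4 took 44.1% ± 6.40 and Dll1 30.8% ± 5.05 of the summed TPM (SD, n = 8). Dll3, a Delta-like protein that acts inside the cell on its own Notch, had 2.66 ± 1.25 TPM, and Jag1 and Jag2 had 0.429 and 0.126 TPM. The shares differed between diets by 1.17 percentage points for Dll1 (30.2% in the zinc deficient and 31.4% in the control mice, exact permutation p = 0.771) and by 1.04 for Dll4 (43.6% and 44.6%, exact permutation p = 0.886), with an adjusted p of 0.886 for both. Since blood vessel cells also express Dll4, endothelial markers were read beside it. Cdh5, Kdr, Tie1 and Emcn had no count in any mouse, and the 6 markers summed to at most 1.05 CPM.

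Bst1 (ENSMUSG00000029082; chromosome 5, 43976227 to 44001328, plus strand, 9 exons) was at the limit of detection. It had 8 counts in control replicate 3, 1 count in zinc deficient replicate 3 and none in the 6 other mice, where the limit of 3 counts that a count of 0 allows is 0.237 to 0.302 CPM. This is 0.935 CPM in control replicate 3 and 0.0872 CPM in zinc deficient replicate 3. Fbxl5, which overlaps exons of Bst1 on the opposite strand, had 2215 counts. Cd38, the related enzyme that also makes cyclic ADP-ribose, had 11.2 to 21.8 CPM in the control mice and 9.98 to 21.8 CPM in the zinc deficient mice. Bst1 did not pass the expression filter and was not tested between diets.

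Kit (ENSMUSG00000005672; chromosome 5, 75735576 to 75817404, plus strand, 21 exons) had 174, 146, 96.4 and 93.7 CPM in control replicates 1 to 4 and 74.5, 77.3, 153 and 83.7 CPM in zinc deficient replicates 1 to 4. Among the zinc deficient mice, replicate 3 was the high one, and it remained so after TMM scaling with 140 CPM against 79.6 to 108 CPM in the other 3. This is also the mouse with 424 CPM of tuft cell markers, whose part in the level of Kit was not tested. Mast cells carry KIT too. Of the 8 mast cell markers, Cpa3, Mcpt1, Mcpt2, Ms4a2 and Cma1 had no count in any mouse, and the list summed to at most 1.31 CPM.

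Cd24a (ENSMUSG00000047139; chromosome 10, 43454280 to 43460264, plus strand, 2 exons) was by far the most abundant of the 8 genes and ranked 31 among all genes by mean TPM. It had 2057, 1732, 1790 and 1625 CPM in control replicates 1 to 4 and 1834, 1467, 2140 and 1951 CPM in zinc deficient replicates 1 to 4, which overlap. After TMM scaling, the control mice had 1310, 1491, 1928 and 1714 CPM and the zinc deficient mice 1962, 2040, 1954 and 2305 CPM, so that every zinc deficient mouse lay above every control mouse. Its exons overlap those of Mtres1 on the opposite strand, which had 461 counts in all.

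**Figure D2:**
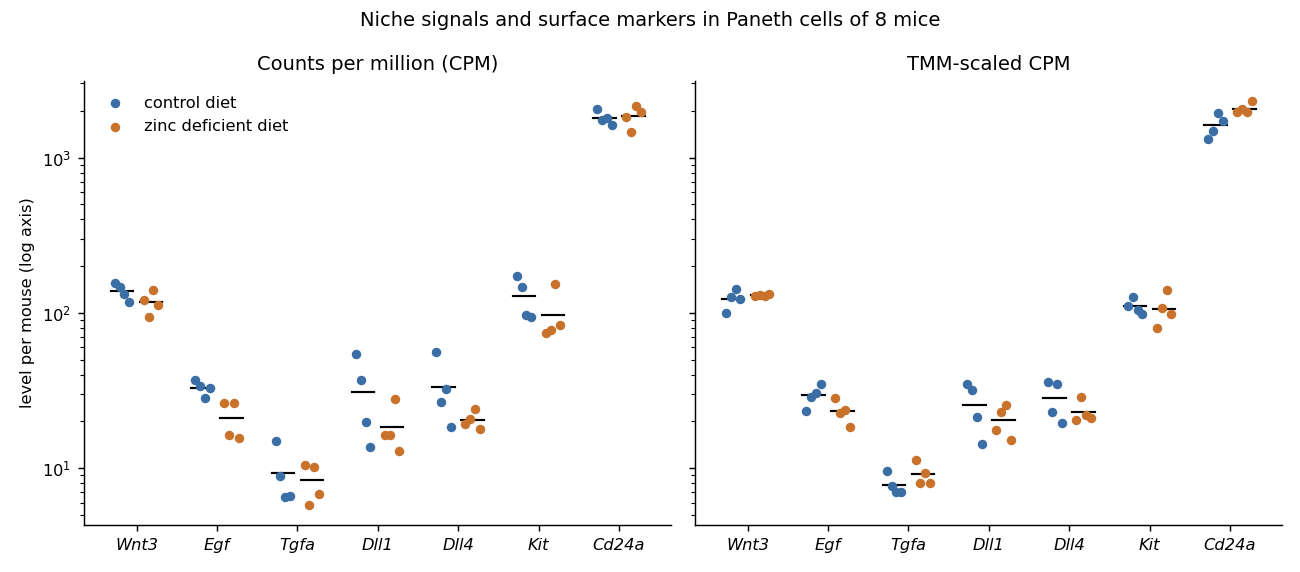
Level of 7 genes in each mouse on a logarithmic axis, in CPM (left) and in TMM-scaled CPM (right), with control mice in blue, zinc deficient mice in orange, replicates 1 to 4 from left to right within a group and the mean as a bar. Bst1, with 9 counts in all, is not drawn. Control replicate 1 is the highest mouse for 6 of the 7 genes in CPM and for 2 of 7 after TMM scaling, and Cd24a separates the diets on the right only.

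Ordered by mean TPM, the genes ran from Cd24a with 585 TPM through Wnt3 with 33.7, Kit with 9.98, Dll4 with 5.77, Dll1 with 4.27, Egf with 1.84 and Tgfa with 1.08 to Bst1 with 0.0309. Each of the 7 neighbouring pairs was compared within the mice on the scale of log2(TPM + 1) by an exact two-sided sign-flip permutation test, and all 7 passed after adjustment over the pairs. The order was taken from the same 8 mice, so these tests are no independent check of it. Their p is at its smallest whenever all 8 mice share a sign, so it does not grade how steady a difference was. The SD and the number of mice with the same sign describe that. Cd24a exceeded Wnt3 by 4.09 ± 0.17 (SD, n = 8) in 8 of 8 mice, with an exact permutation p = 0.00781, the smallest that 8 mice allow, and adjusted p = 0.00911. The closest pair was Dll4 and Dll1, which differed by 0.41 ± 0.30 in 7 of 8 mice (exact permutation p = 0.0234, adjusted p = 0.0234). The pairs on either side of Dll1 rest on the choice of length. With the length of the canonical transcript, Dll4 and Dll1 (adjusted exact permutation p = 0.128) and Dll1 and Egf (adjusted exact permutation p = 0.266) no longer differed beyond the spread between mice, whereas the order itself was kept.

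The diets were compared with edgeR's quasi-likelihood test across 10911 genes, with Benjamini-Hochberg adjustment over all of them. Of the 7 niche and surface genes tested, none, with or without the promoter letters above, had an adjusted p under 0.05 and none an unadjusted p under 0.05, where 0.403% of all genes tested were called and 10.5% had an unadjusted p under 0.05. The DESeq2 test called none of the 7 either, with 1, Cd24a, at an unadjusted p of 0.011 (DESeq2 adjusted p = 0.238). The values of the diets did not overlap after TMM scaling for 1 of the 7, Cd24a, which was higher, where 2.3% of all genes tested were higher without overlap. None was lower without overlap, against 3.79% of all genes, which gives 6.09% in either direction. The median log2 fold change of the 7 genes was -0.044, beside -0.0052 over all genes tested.

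Cd24a had the largest difference upward, with a log2 fold change of 0.36 (SE 0.21, adjusted p = 0.602), which is 1.28-fold with a 95% interval of 0.938 to 1.75. This size rests on the scaling: with the library totals alone it was 0.037. The next was Tgfa with 0.22 (SE 0.20, adjusted p = 0.765), or 1.16-fold (0.870 to 1.56), which turned to -0.16 with library totals. Wnt3 had 0.086 (SE 0.14, adjusted p = 0.898) and turned to -0.24 with library totals and to -0.0066 without control replicate 1. On the log2 scale its interval, which is 0.860 to 1.31-fold, was the narrowest of the 7.

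Dll1, Egf and Dll4 lay lower in the zinc deficient mice, none beyond the spread between mice. Dll1 had a log2 fold change of -0.34 (SE 0.24, adjusted p = 0.683), Egf of -0.33 (SE 0.17, adjusted p = 0.507) and Dll4 of -0.30 (SE 0.19, adjusted p = 0.641). As folds with 95% intervals these are 0.790 (0.551 to 1.13), 0.794 (0.624 to 1.01) and 0.811 (0.611 to 1.08). Egf had the smallest unadjusted p of the 7, 0.0596 in edgeR's test. Library totals took these log2 fold changes to -0.76, -0.64 and -0.71, while moving the median of all genes by -0.36, and the adjusted p stayed at 0.361, 0.308 and 0.320. Single control mice moved both Notch ligands in either direction. Dll1 went from -0.16 without control replicate 1 to -0.53 without control replicate 4, and Dll4 from -0.17 to -0.44 without the same mice, with no adjusted p under 0.05. Kit had the smallest difference with TMM scaling, at -0.044 (SE 0.17, adjusted p = 0.959) with an interval of 0.761 to 1.24-fold, and had -0.39 with library totals and -0.20 without zinc deficient replicate 3.

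**Figure D3:**
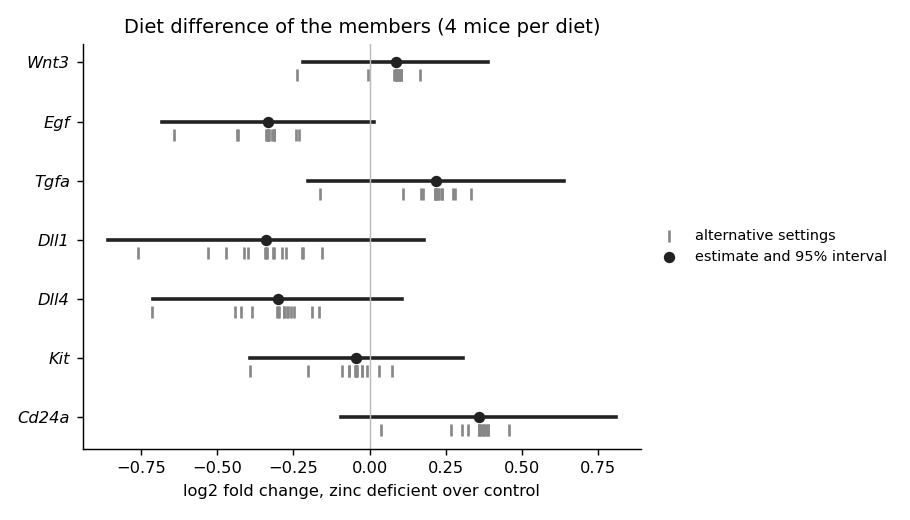
Difference between diets of 7 genes as log2 fold change (x axis, zinc deficient over control), with the estimate (point), its 95% interval (line) and the estimate under each of 15 alternative settings (grey ticks). Every interval holds 0, and the leftmost tick of each row, from -0.76 for Dll1 to 0.037 for Cd24a, is that of the scaling by library totals.

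The wider niche pathways were read through 14 lists with 128 genes other than the 8, of which 83 were expressed highly enough to be tested. Of these 83, 1 was called lower and none higher, where 0.257% of all genes tested were called lower and 0.147% higher. An unadjusted p under 0.05 in edgeR's test was reached downward by 13 and upward by 3, against 6.04% and 4.43% of all genes tested. The called gene is Cd44, an adhesion receptor for hyaluronan and a known target of Wnt signalling in the crypt. Cd44 had 18.1, 13.98, 8.65 and 13.0 CPM in control replicates 1 to 4 and 5.14, 3.81, 7.41 and 4.59 CPM in zinc deficient replicates 1 to 4. These values do not overlap, and the share of all genes without overlap in CPM was not counted. After TMM scaling, Cd44 was also lower without overlap, as were 3.79% of all genes tested. It fell by 1.02 on the log2 scale (SE 0.20, adjusted p = 0.0343), and the call was lost in 5 of the 8 fits that leave out 1 mouse, with an adjusted p of 0.147 and 0.141 when control replicate 2 or 4 was omitted, and of 0.0764, 0.0776 and 0.0866 when it was zinc deficient replicate 1, 2 or 4. It was also lost with library totals (adjusted p = 0.112). The log2 fold change itself was -1.36 with library totals and -1.10 to -0.93 when 1 mouse was left out.

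On the Wnt side, the machinery that releases the ligand was present: Wls, the carrier of lipidated Wnt, had 29.1 to 63.9 CPM and Porcn, the enzyme that lipidates Wnt, had 1.502 to 5.61 CPM per mouse. None of the 7 genes for lipidation and release was called, and their median log2 fold change was 0.066. Of the 15 secreted modulators, 4 were tested, and the R-spondins Rspo1, Rspo2 and Rspo3 had no count in any mouse. Sfrp5, a secreted Wnt antagonist, had 8.202 to 10.1 CPM in the control mice and 0.907 to 4.64 CPM in the zinc deficient mice, and its log2 fold change of -1.59 (SE 0.35, adjusted p = 0.0553) lay just outside the threshold. It lay inside it with DESeq2 (adjusted p = 0.00425), without the expression filter (1.88e-05), and when replicate 1 of the control (0.0347) or of the zinc deficient mice (0.0226) was omitted. Wif1, another antagonist, had -1.20 (SE 0.37, adjusted p = 0.215), and passed without the filter alone (0.0355). None of 17 Wnt receptor genes tested was called, and 4 had an unadjusted p under 0.05 downward and 1 upward. Downward these were the Frizzled receptors Fzd4 with -0.98 (adjusted p = 0.276) and Fzd7 with -0.56 (adjusted p = 0.386), the ubiquitin ligase Rnf43, which removes Frizzled from the surface, with -0.57 (adjusted p = 0.319), and Lgr5, the R-spondin receptor that marks stem cells, with -0.51 (adjusted p = 0.337). Without zinc deficient replicate 4, Lgr5 had -0.31. Upward, Lgr4 had 0.32 (SE 0.14, adjusted p = 0.427), which turned to -0.055 with library totals.

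The ErbB and Notch sides gave no call. Among 5 ErbB receptors and inhibitors tested, Erbb2 stood lowest with a log2 fold change of -0.84 (SE 0.25, adjusted p = 0.190), which passed only without the expression filter (adjusted p = 0.00926). The 7 genes tested for trafficking and shedding of ErbB ligands had a median of 0.090. Of the 9 tested Notch receptor and processing genes, Notch1 had -0.73 (SE 0.21, adjusted p = 0.183), with 7.13 to 13.4 CPM in the control mice and 4.03 to 6.11 CPM in the zinc deficient mice. The 6 genes that activate Notch ligands had a median of 0.0018. Among them, Neurl1b had the largest difference, a log2 fold change of -1.62 (SE 0.64, adjusted p = 0.355 in edgeR's test).

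Around the surface markers, Kitl, which encodes the ligand of KIT, had a log2 fold change of -0.88 (SE 0.29, adjusted p = 0.241), with 4.09 to 11.5 CPM in the control mice and 1.98 to 5.06 CPM in the zinc deficient mice. Sh2b3, also of the KIT signalling genes, had -0.75 (SE 0.29, adjusted p = 0.353). Cd9, a tetraspanin of the cell surface, had 0.45 (SE 0.17, adjusted p = 0.306), and 0.13 with library totals. Among the other crypt surface genes, Efnb2 had a larger value of 0.97 (SE 0.43, adjusted p = 0.438), and Itga6 had -0.31 (SE 0.13, adjusted p = 0.420). None of the 6 KIT signalling genes, the 3 NAD enzymes tested and the 4 lactate genes tested was called. Beside these values, 2 of the 6 proliferation markers, Top2a and Ube2c, were called lower, and all 6 had an unadjusted p under 0.05 downward, as did 6.04% of all genes tested. Their summed level was 77.1 to 161 CPM in the control mice and 25.6 to 69.7 CPM in the zinc deficient mice. None of the 8 stem cell markers was called, 7 of them had an unadjusted p under 0.05 downward against the same 6.04%, and their median log2 fold change was -0.65. The 9 Paneth cell markers had a median log2 fold change of 0.43, and none was called. An unadjusted p under 0.05 upward in edgeR's test was reached by 2 of them, against 4.43% of all genes tested. The larger of these was Mptx2 with 1.45 (SE 0.34, adjusted p = 0.0712). After TMM scaling, 2 of the 9 were higher without overlap, against 2.3% of all genes tested, and none was lower without overlap. The part of Paneth, goblet, stem or dividing cells in the values of the niche genes was not tested.

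**Figure D4:**
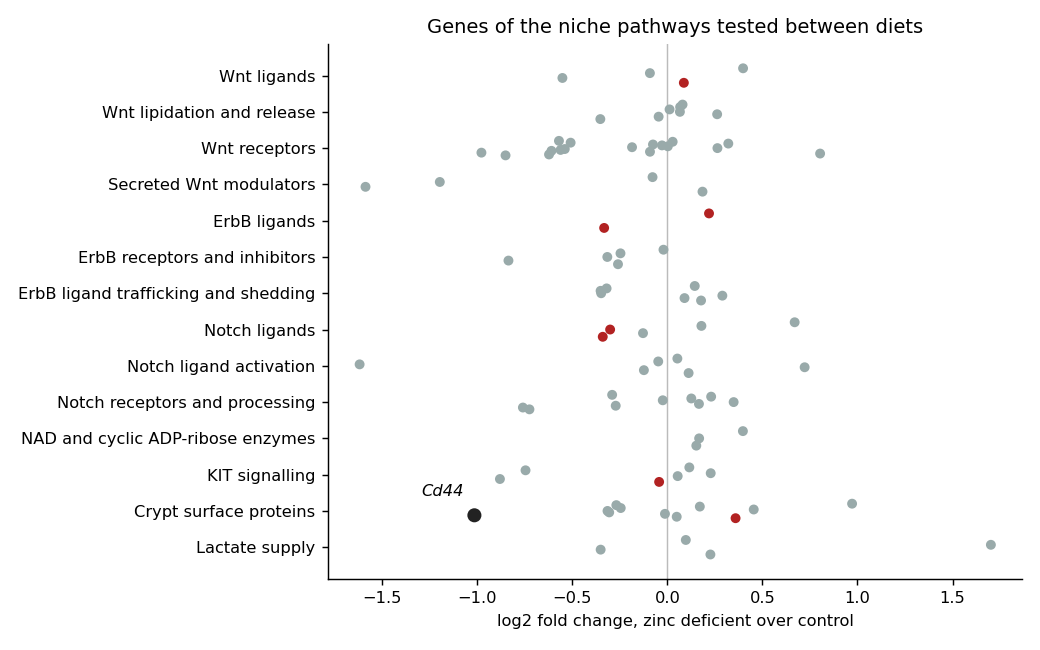
Log2 fold change (x axis, zinc deficient over control) of each tested gene of the 14 pathway lists (rows), with Wnt3, Egf, Tgfa, Dll1, Dll4, Kit and Cd24a in red, other genes in grey and the called gene in black. Cd44, at -1.02, is the only gene with an adjusted p under 0.05.

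For each tested gene of the 7, the genes most like it over the 8 mice were sought among the 5790 others whose mean reached 10 CPM, as the root mean square difference of TMM-scaled log2 levels centred on each gene's mean. Nearest to Wnt3 were Atp6ap2 and Soat1 (0.0510 and 0.0575, where the levels of Wnt3 themselves deviate by 0.14). Nearest to Cd24a were Ginm1 and BC004004 (0.0471 and 0.0625, against 0.25), and nearest to Kit were Nbeal2 and Cic (0.0524 and 0.0874, against 0.23). For Egf these were Adi1 and Acat1 (0.0897 each, against 0.26), for Dll4 Pik3ca and Dyrk1a (0.14 and 0.16, against 0.32) and for Dll1 Fbrsl1 and Tshz1 (0.15 and 0.17, against 0.42). Tgfa, whose own mean is below 10 CPM, lay nearest to Misp and Ppp1r10 (0.0726 and 0.0813, against 0.20). None of these 14 genes belongs to the lists above.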

How the data were processed

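RNA-seq gene counts of sorted Paneth cells from 8 mice were analysed. The authors deposited raw counts per Ensembl gene, and the submitters' processing notes list FastQC 0.12.0, STAR 2.7.0a, DESeq2 and mm39 with no order. The annotation and the strand setting of the counting are not stated. GENCODE M39 (GRCm39) named 54749 of 55414 identifiers. Counts were scaled to CPM and to TPM (summed exon length). The diet contrast was fitted in edgeR 4.0.16 under R 4.3.3 (TMM, expression filter, robust quasi-likelihood test, Benjamini-Hochberg, threshold 0.05) over 10911 genes. The floor of 3 counts covers counting error only. The 4 replicates per diet are biological, as the series design states. On simulated counts of these 10911 genes, 94% of genes changed 4-fold and 69% of those changed 2-fold were called, and 6.86% of calls were false. Each simulated gene had the spread between mice typical of its level. No outlying mouse and no change smaller than 2-fold was simulated. The 8 genes and all lists were chosen with earlier results of these data known. Named are these 8, genes of the lists and, for each tested one, the 2 genes most like it. Alternatives were DESeq2 1.42.0, other scalings, no filter, no robust option, the replicate number as a block, other lengths and pseudocounts, and each mouse left out. Permutation tests enumerated all assignments. Python 3.11.15 was used elsewhere.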

Additional observations from a re-analysis of the deposited data

Results flagged for a closer look

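After TMM scaling, Dll4 in zinc deficient replicate 2 (28.8 CPM) stood away from the other 3 zinc deficient mice (20.5 to 21.8 CPM), with a gap of 0.837 of the range of the group, above Dixon's 95% critical value for 4 samples. This was the only such sample in 14 groups of 4 values (7 genes, 2 diets), and chance gives about 1 in 20. Without this mouse the log2 fold change of Dll4 was -0.42 (edgeR's adjusted p = 0.469).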

How the results depend on the processing

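Under all 15 alternatives of the diet fit, 0 of the niche and surface genes were called. Over all genes, 44 were called, and 11 with library totals, 25 without the robust option, 146 with DESeq2 and 251 without the expression filter, which tests 18839 genes. Leaving out 1 mouse gave 8 (without control replicate 2 or 4) to 36 calls. Without filter or with DESeq2 all 44 remained, and with library totals 8 did. The direction of small differences turned: with library totals Wnt3 had -0.24, Tgfa -0.16 and Lgr4 -0.055. Leaving out 1 mouse gave -0.0066 to 0.17 for Wnt3 and -0.20 to 0.074 for Kit, and the cause was not tested. With canonical transcript lengths, Wnt3 took 96.6% of the Wnt ligands and Tgfa 24.8% of the ErbB ligands. With the replicate number as a block, 53 genes were called, of which 36 are among the 44, and it changed no call of the niche and surface genes. Mice of the same number in the 2 diets correlated at 0.005 to 0.114. Replicates 1 and 2 were most like their own number both ways, and replicates 3 and 4 were not. Whether the numbers pair the mice is not settled by these values. Depth limits Bst1, with 9 counts, and Tgfa most.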
